A study of Mus musculus with 25 samples.

Results

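The 9 genes described here encode the pathway by which acetylcholine and adenosine slow the heart: the receptors Chrm2 (muscarinic M2 receptor) and Adora1 (adenosine A1 receptor), the G protein subunits Gnao1, Gnai1, Gnai2, Gnai3 and Gnb5, and the channel subunits Kcnj3 (GIRK1) and Kcnj5 (GIRK4). They were chosen by name for their known role, with earlier results of these data known. All 9 were found among the 20870 genes measured. RNA was sequenced from 25 libraries of mouse heart tissue cut out by laser capture, from the sinoatrial node (SAN), where the heartbeat starts, or from the right atrium (RA). All mice carried the Hcn4-GFP allele on a mixed background. Each tissue was taken before birth, on embryonic day 14.5 (E14.5), and at 4 and 14 days of age (P4 and P14), with 3 libraries per tissue and stage. Another 7 libraries were SAN at embryonic day 12.5 (E12.5) from embryos homozygous for a floxed Isl1 allele (Isl1 fl/fl), all exposed to tamoxifen at embryonic day 10.5. Of these, 4 had no Cre (CreNeg) and 3 carried CAG-Cre/Esr1 (CrePos), a tamoxifen-activated Cre under a broadly active promoter, so that recombination is not limited to the node. CrePos replicate 2 is marked as an outlier in its title and was left out of the comparison.

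In this pathway, acetylcholine released by the vagus nerve binds the M2 receptor, and adenosine binds the A1 receptor. Both receptors activate G proteins of the Gi/o class, whose alpha subunit restrains adenylyl cyclase while the released beta-gamma pair opens the GIRK channel. In atrial and nodal myocytes that channel is built from GIRK1 and GIRK4, and the potassium current through it slows the pacemaker and shortens the atrial action potential. Gnb5 encodes an atypical beta subunit that pairs with RGS proteins of the R7 family, which speed up the switching off of Gi/o signalling.

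Values are in CPM, recovered reads scaled to a common library size by the authors' normalization. Recovered read totals ran from 5101711 to 17997497 in the 18 tissue and stage libraries, where 3 reads are worth 0.185 to 0.646 CPM, and from 45298052 to 88020475 in the Isl1 set. Differences are between group means of log2(CPM + 1), given with their standard error (SE) and tested with limma over 17568 genes, or 14595 in the Isl1 set, with a call at an adjusted p (Benjamini-Hochberg) under 0.05. The pseudocount of 1 understates changes of genes with low values. The labels do not say whether libraries of a group came from different animals, so p-values cover only how far these libraries varied, which may be technical. In bulk tissue, fewer cells of a type and less RNA per cell cannot be told apart. The capture matched its labels in the 18 libraries: the summed CPM of the SAN markers Hcn4, Tbx3, Shox2 and Isl1 was 1697 to 5063 in SAN and 20.8 to 50.7 in RA. One library, SAN E14.5 replicate 1, held 829 CPM of the ventricular gene Myl2, against 24.5 CPM or less in the other 17. Calls of Gnai1, Kcnj3 and Kcnj5 that were lost without it are named, and not every result is given without it.

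Over the 3 stages together, 3 of the 9 genes were higher in SAN than in RA and 1 was lower. Among all genes tested 11.5% were called in that comparison, 6.11% higher and 5.36% lower, and the median difference was 0.27 for the 9 genes and −0.01 for all genes. The 4 called genes were one receptor, 2 alpha subunits and one channel subunit. Adora1 was higher by 2.52 ± 0.37 on the log2 scale (adjusted p = 3.9e-05), Gnao1 by 0.40 ± 0.10 (adjusted p = 0.00854) and Gnai1 by 0.55 ± 0.16 (adjusted p = 0.0323). Kcnj3 differed by −1.66 ± 0.18 (adjusted p = 7.8e-07). Chrm2 at 0.06, Kcnj5 at 0.27, Gnb5 at 0.36, Gnai3 at −0.15 and Gnai2 at −0.20 did not pass. Gnai1 lost its call on leaving out any of 9 libraries, most of all SAN E14.5 replicate 1 (adjusted p = 0.0819). Kcnj5 passed without RA P14 replicate 2 (adjusted p = 0.04) and with library weights (adjusted p = 0.0202).

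**Figure D1:**
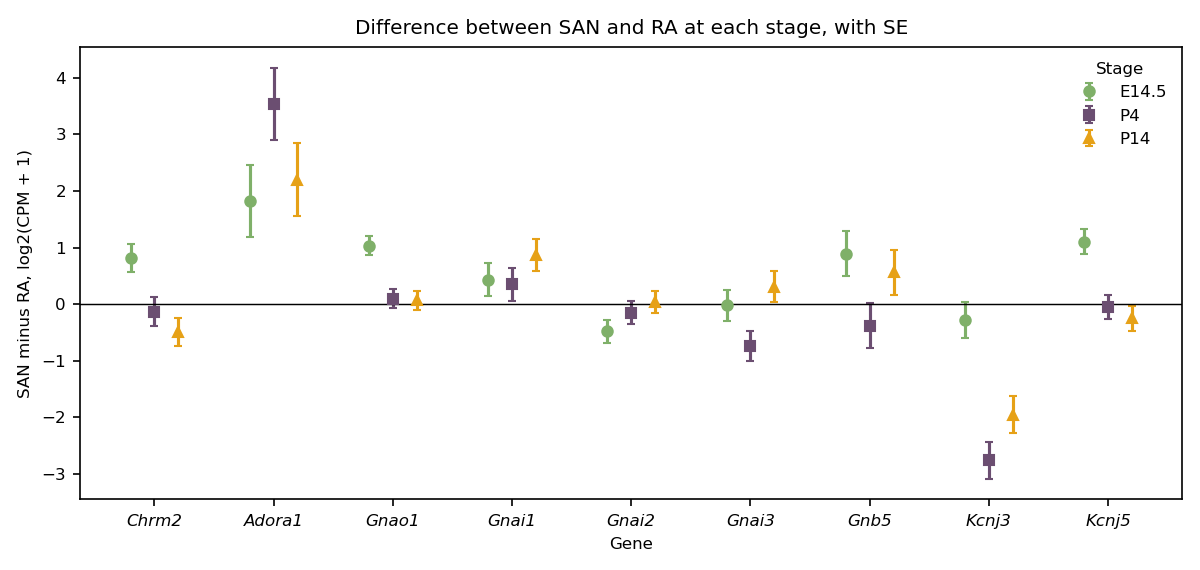
Difference between SAN and RA in log2(CPM + 1) for each of the 9 genes (y axis) at E14.5, P4 and P14 (circle, square and triangle). Bars are the SE of the limma fit, with 3 libraries per group; points above 0 are higher in SAN. Adora1 lies above 0 at each stage, from 1.82 to 3.54, Kcnj3 lies at −2.76 and −1.95 after birth, and Gnao1 and Kcnj5 are near 1 at E14.5 only.

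The sequences upstream of 3 members are shown here, because Adora1 and Kcnj3 held the largest tissue differences, in opposite directions, and Kcnj5, the channel partner of Kcnj3, followed neither. Each is the run of 250 bases before the RefSeq start on GRCm38.p6, written along the transcript, with matches to the searched motifs in capitals. Kcnj3 lies at chr2:55435720-55435969 on the plus strand, Kcnj5 at chr9:32344345-32344594 and Adora1, in the first of its 2 listed promoters, at chr1:134235458-134235707, both on the minus strand.
Kcnj3: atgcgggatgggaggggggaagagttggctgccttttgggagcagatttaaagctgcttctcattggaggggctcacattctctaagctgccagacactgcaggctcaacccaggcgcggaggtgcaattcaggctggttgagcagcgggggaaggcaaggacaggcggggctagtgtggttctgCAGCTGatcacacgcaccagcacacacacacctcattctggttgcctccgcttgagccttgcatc
Kcnj5: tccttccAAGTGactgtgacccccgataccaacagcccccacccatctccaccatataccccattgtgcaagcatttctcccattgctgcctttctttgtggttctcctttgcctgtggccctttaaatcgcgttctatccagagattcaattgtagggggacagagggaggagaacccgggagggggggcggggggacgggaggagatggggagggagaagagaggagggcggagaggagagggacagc
Adora1: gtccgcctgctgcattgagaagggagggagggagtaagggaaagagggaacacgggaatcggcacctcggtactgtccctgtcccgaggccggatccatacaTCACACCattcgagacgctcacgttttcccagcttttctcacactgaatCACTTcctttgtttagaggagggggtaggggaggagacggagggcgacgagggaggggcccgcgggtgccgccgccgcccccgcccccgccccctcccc
The motifs searched on both strands were GGTGTGA (core of the T-box site), AAGTG (core of the Nkx2-5 site), CAGCTG (an E-box) and TAATTA (a homeodomain core), none of which overlaps another in these runs. In this Adora1 promoter the T-box core is present in reverse, as TCACACC, starting 148 bases before the start, and the Nkx2-5 core in reverse, as CACTT, at 99 bases. The second listed Adora1 promoter, at chr1:134234857-134235106, held no match to any searched motif. Kcnj3 holds the E-box at 65 bases and Kcnj5 the Nkx2-5 core at 243 bases. The T-box core is found in 3.33% of the 32851 promoters of the table, the Nkx2-5 core in 40.7%, the E-box in 13% and the homeodomain core in 4.84%. Of the 8 genes with an entry, the T-box core was found in 1 (Adora1), the Nkx2-5 core in 3 (Adora1, Gnai3 and Kcnj5), the E-box in 1 (Kcnj3) and the homeodomain core in 0. These counts take a gene with a match in any listed promoter, while the percentages are per promoter. These matches describe the letters of a window and no binding was measured.

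The adenosine receptor gene was the member that separated SAN from RA at every stage. Adora1 stood at 80.8, 112 and 99.8 CPM in SAN E14.5, against 30, 47.0 and 13.2 CPM in RA E14.5. At P4 it was at 79.2, 89.9 and 66.7 CPM in SAN, against 16.6, 13.8 and 0.215 CPM in RA. At P14 the SAN libraries held 43.3, 77.2 and 58.2 CPM and the RA libraries 11.5, 12.3 and 11.7 CPM. In each stage all 3 SAN libraries lay above all 3 RA libraries. Ranges of SAN and RA were apart for 6 members at E14.5, 2 at P4 and 4 at P14, beside 26.6%, 18.5% and 19.7% of all genes. For Adora1 the ratio of mean CPM was 3.25 at E14.5, 7.70 at P4 and 5.03 at P14. The lowest value, in RA P4 replicate 3, rests on 1 read, where its fellow libraries had 163 and 132 reads. The difference was called at P4, at 3.54 ± 0.64 (adjusted p = 8.8e-04), in a comparison that called 5.96% of all genes and 2 members, Adora1 and Kcnj3. Without RA P4 replicate 3 it was 2.29 and still called, and it was not called when only the SAN and RA libraries of P4 entered the fit (adjusted p = 0.12). At E14.5, at 1.82 ± 0.64 (adjusted p = 0.11), and at P14, at 2.20 ± 0.64 (adjusted p = 0.0503), it did not pass; without RA P4 replicate 3 adjusted p was 0.00174 and 3.0e-04. With the replicate number as a block the P14 difference passed (adjusted p = 0.0263).

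The summed level of autonomic neuron markers was also higher in SAN at each stage. Of 13 such markers 11 were in the file, and their summed CPM was 140 to 240 in SAN and 19.5 to 22.8 in RA at E14.5, 130 to 323 and 25.2 to 31 at P4, and 54.8 to 70 and 25.4 to 38.7 at P14. In the SAN libraries Phox2a and Prph were at 0 at E14.5, Slc5a7 at P4, and Phox2a and Slc5a7 at P14. In the RA libraries Phox2a, Prph and Chrna3 were at 0 at E14.5 and P4. Not every marker followed the sum, as Slc5a7 was lower in SAN over the 3 stages, by −1.29 (adjusted p = 0.0138). Their part in the Adora1 difference was not tested. Within SAN, Adora1 moved by −0.73 from E14.5 to P14 (adjusted p = 0.45), and within RA by −1.11 (adjusted p = 0.22), and neither change passed. The RA change passed without RA P4 replicate 3 (adjusted p = 0.0198) and with library weights (adjusted p = 0.00969). From E14.5 to P4 Adora1 in RA differed by −2.02 ± 0.64 (adjusted p = 0.0614), and it passed in 6 of 28 alternatives, among them the replicate block (adjusted p = 0.0347), sarcomere scaling (adjusted p = 0.0139) and library weights (adjusted p = 0.0367). Without RA P4 replicate 3 it was −0.78 (adjusted p = 0.36).

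The muscarinic receptor gene rose with age in both tissues and was not called between them at any stage. Chrm2 was at 166, 173 and 129 CPM in SAN E14.5, at 445, 328 and 229.6 CPM in SAN P4 and at 214, 351 and 389.9 CPM in SAN P14. In RA the values were 101, 110.2 and 61.1 CPM at E14.5, 339.9, 346 and 373 CPM at P4, and 486, 406 and 414 CPM at P14. Every postnatal library of either tissue was above every E14.5 library of that tissue, and among all genes such ranges were apart for 24.8% of all genes at P4 and 39.3% at P14 in SAN and for 26.2% and 43.8% in RA. From E14.5 to P4 Chrm2 rose by 1.05 ± 0.25 in SAN (adjusted p = 0.0108) and by 1.99 ± 0.25 in RA (adjusted p = 2.0e-05). Up to P14 it rose by 0.99 ± 0.25 in SAN (adjusted p = 0.00574) and by 2.29 ± 0.25 in RA (adjusted p = 1.0e-06). The P4 call in SAN was lost without SAN E14.5 replicate 3 (adjusted p = 0.0562), without SAN P4 replicate 1 (adjusted p = 0.0666) and with only the groups compared (adjusted p = 0.0654).

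At E14.5 all 3 SAN libraries held more Chrm2 than any RA library, and at P14 all 3 held less. The differences were 0.81 ± 0.25 (adjusted p = 0.0642) and −0.49 ± 0.25 (adjusted p = 0.36), and neither passed; the first did without any of 3 postnatal SAN libraries (adjusted p from 0.0367 to 0.0415), in DESeq2 (adjusted p = 0.0308) and with library weights (adjusted p = 0.00467). The change between them, from E14.5 to P14, was −1.30 ± 0.35 (adjusted p = 0.0536), just outside the threshold. It passed without SAN E14.5 replicate 3, SAN P4 replicate 1, SAN P4 replicate 3 or SAN P14 replicate 3 (adjusted p from 0.0283 to 0.0467), with equal upper quartiles (adjusted p = 0.0275), in DESeq2 (adjusted p = 0.0103) and with library weights (adjusted p = 0.00937). In order of mean CPM Chrm2 was highest in RA P14, followed by RA P4, SAN P4, SAN P14, SAN E14.5 and RA E14.5. The ranges of RA P4, SAN P4 and SAN P14 overlapped from each to the next.

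**Figure D2:**
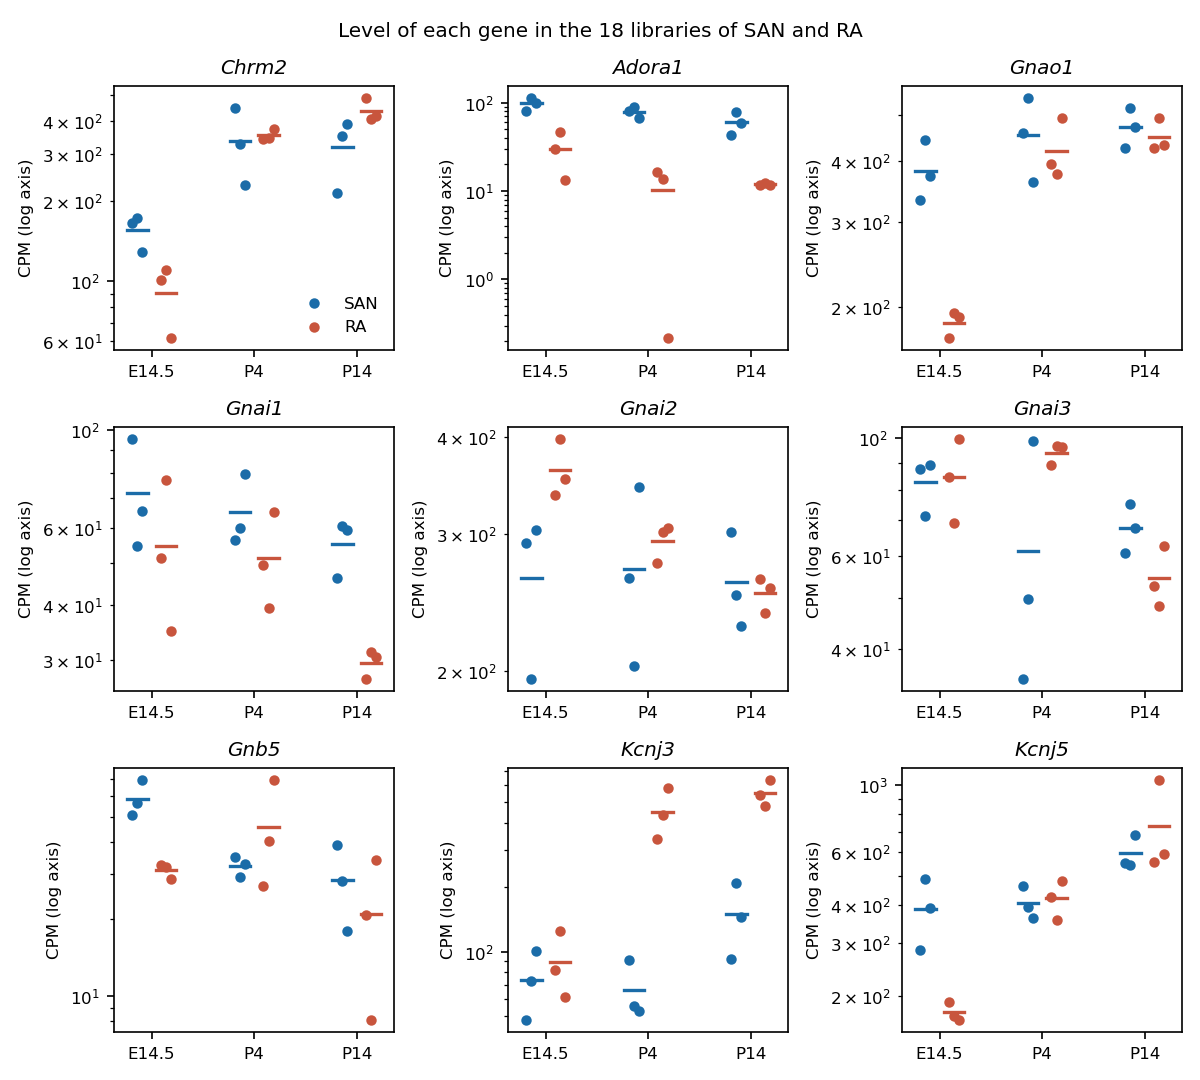
Level of each of the 9 genes in the 18 libraries of SAN (blue) and RA (red) at E14.5, P4 and P14, in CPM on a log axis; each point is a library and each line the mean of 3. SAN and RA points are apart at each stage for Adora1, and after birth for Kcnj3. The lone low point of Adora1 in RA P4 is 0.215 CPM.

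Kcnj3, the GIRK1 subunit gene, had overlapping ranges in the tissues before birth and was lower in SAN than in RA after it. At E14.5 it was at 47.6, 72.5 and 101 CPM in SAN and at 82.2, 124 and 61.0 CPM in RA, with overlapping ranges. At P4 the SAN libraries held 90.9, 55.3 and 52.5 CPM and the RA libraries 335, 434 and 586 CPM. At P14 they held 91.7, 210.1 and 146 CPM in SAN and 542, 479.8 and 636 CPM in RA. From P4 on every SAN library lay below every RA library, and mean CPM in SAN was 0.147 times that in RA at P4 and 0.270 times at P14. The difference was −0.28 ± 0.32 at E14.5 (adjusted p = 0.77), −2.76 ± 0.32 at P4 (adjusted p = 3.8e-06) and −1.95 ± 0.32 at P14 (adjusted p = 4.8e-04). At P14 Kcnj3 was the 1 member called, where 4.55% of all genes were called and 1.34% lower in SAN. The dependence of the tissue difference on stage was itself called by the limma F test (adjusted p = 0.00939), a test that called 2.04% of all genes.

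In RA, Kcnj3 rose by 2.35 ± 0.32 from E14.5 to P4 (adjusted p = 4.5e-05) and by 2.67 ± 0.32 to P14 (adjusted p = 3.0e-06), the largest rise of the 9 genes. In SAN it moved by −0.13 ± 0.32 from E14.5 to P4 (adjusted p = 0.86) and rose by 1.12 ± 0.32 from P4 to P14 (adjusted p = 0.0394). The SAN rise was lost when any of 7 libraries was left out, with an adjusted p of 0.17 in the absence of SAN P14 replicate 2. Over the whole span from E14.5 to P14 it rose in SAN by 0.99 ± 0.32 (adjusted p = 0.0254), which did not pass without SAN E14.5 replicate 1 (0.71, adjusted p = 0.16) or any of 3 other SAN libraries, or with only the groups compared (adjusted p = 0.0658). Summed over Actc1, Tnnt2, Ryr2, Myh6 and Actn2, markers of all heart myocytes, RA held 23081 to 29897 CPM at E14.5, 22762 to 26226 at P4 and 39705 to 42653 at P14. SAN held 31637 to 35325 CPM at E14.5, 28801 to 34844 at P4 and 27551 to 33427 at P14. These sums were thus higher in SAN at E14.5 and P4 and lower at P14, without overlap. Their part in the tissue differences was not tested. With libraries scaled instead to equal levels of 20 sarcomere genes, the difference between SAN and RA in Kcnj3 was −2.71 at P4 and −1.57 at P14, and both were called.

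Kcnj5, the GIRK4 subunit gene, differed between tissues before birth and rose later in both. At E14.5 it was at 286, 488 and 393 CPM in SAN and 192, 173 and 167 CPM in RA, with no overlap. At P4 the values were 464, 394 and 363 CPM in SAN and 427, 359 and 482 CPM in RA. At P14 they were 553, 544 and 685 CPM in SAN and 556, 1040 and 594 CPM in RA, so that the ranges overlapped at both postnatal stages. The difference was 1.10 ± 0.22 at E14.5 (adjusted p = 0.0032), −0.05 ± 0.22 at P4 and −0.25 ± 0.22 at P14. Kcnj5 and Gnao1 were the members called at E14.5, where 5.33% of all genes were called, 2.24% higher in SAN. Without SAN E14.5 replicate 1, as without any other library, both stayed called, Kcnj5 at 0.92 to 1.30 over all omissions.

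In RA, Kcnj5 rose by 1.24 ± 0.22 from E14.5 to P4 (adjusted p = 8.1e-04) and by 1.98 ± 0.22 to P14 (adjusted p = 1.2e-06). The step from P4 to P14, 0.74 ± 0.22 (adjusted p = 0.0453), was lost when any of 11 libraries was left out, with adjusted p = 0.25 without RA P14 replicate 2, and with the replicate block (adjusted p = 0.0544). In SAN it rose by 0.64 ± 0.22 from E14.5 to P14 (adjusted p = 0.0375), a call lost without SAN E14.5 replicate 1 (0.43, adjusted p = 0.22) or any of 4 other SAN libraries of these 2 stages, or with no filter on low values (adjusted p = 0.0524). The difference between SAN and RA changed from E14.5 to P14 by −1.34 ± 0.31 (adjusted p = 0.0236).

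Within each library the share of the channel genes was compared per kilobase of exon, since the subunits form one channel. Kcnj5 per kilobase stood above Kcnj3 in all 9 SAN libraries, by a log2 difference of 2.74, 2.90 and 2.12 at E14.5, 2.51, 2.99 and 2.94 at P4, and 2.75, 1.53 and 2.39 at P14. In RA the log2 difference was 1.38, 0.63 and 1.6 at E14.5, 0.50, −0.12 and −0.13 at P4, and 0.19, 1.27 and 0.06 at P14. As a ratio, Kcnj5 per kilobase was 6.17 ± 1.64, 7.10 ± 1.23 and 4.94 ± 1.93 times Kcnj3 in SAN at E14.5, P4 and P14 (SD, n = 3). In RA it was 2.40 ± 0.77, 1.08 ± 0.29 and 1.53 ± 0.76 times Kcnj3 (SD, n = 3). At every stage the 3 SAN libraries lay above the 3 RA libraries. These ratios are a description, do not depend on the scaling between libraries and concern transcripts only.

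**Figure D3:**
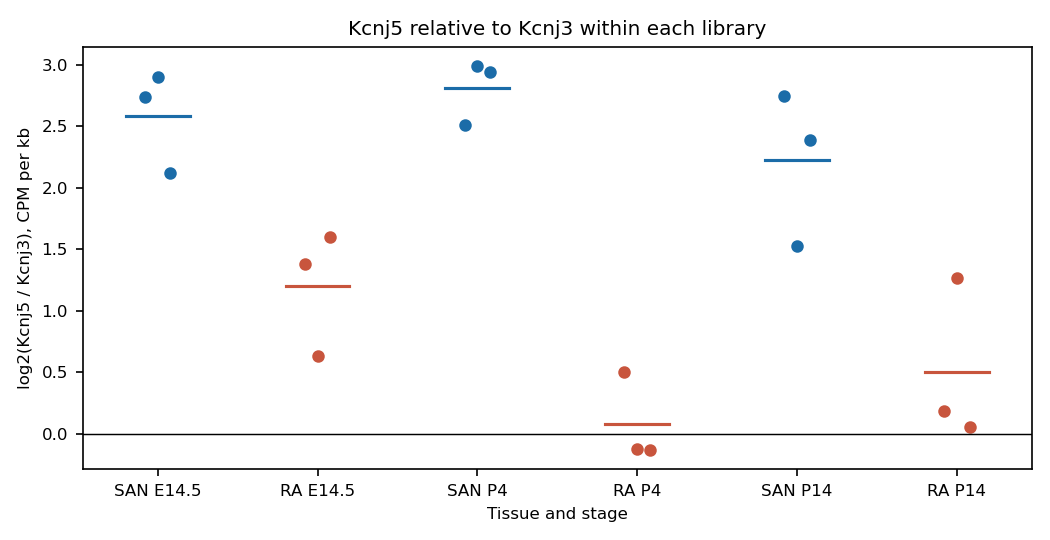
Kcnj5 relative to Kcnj3 in each SAN (blue) and RA (red) library, as log2 of the ratio of CPM per kilobase (y axis), by tissue and stage; points are libraries, lines are means of 3 and 0 marks equal levels. SAN libraries lie between 1.53 and 2.99, and RA libraries between −0.13 and 1.6.

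Gnao1, the Go alpha subunit gene, was the alpha subunit called with age. It was at 332, 443 and 374 CPM in SAN E14.5 and at 172, 194 and 190.3 CPM in RA E14.5. At P4 the values were 458, 541 and 362 CPM in SAN and 394, 377 and 492 CPM in RA, and at P14 426, 516 and 472 CPM in SAN and 426, 492 and 432 CPM in RA. Only RA E14.5 stood apart, and the other 5 groups had ranges that overlapped from each to the next in order of mean. The difference was 1.03 ± 0.17 at E14.5 (adjusted p = 5.5e-04), 0.10 ± 0.17 at P4 and 0.07 ± 0.17 at P14. In RA Gnao1 rose by 1.17 ± 0.17 from E14.5 to P4 (adjusted p = 9.9e-05), and in SAN it moved by 0.23 ± 0.17 (adjusted p = 0.47). By P14 the RA change was 1.27, against −0.78 for Gnai1, −0.52 for Gnai2 and −0.61 for Gnai3, which did not pass. On sarcomere scaling, where 6280 of all genes were called, all 4 passed, at 0.91, −1.14, −0.89 and −0.97. The change of the tissue difference from E14.5 to P14 was −0.97 ± 0.24 (adjusted p = 0.0351).

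Gnao1 and Kcnj5 were the 2 members called for that change, in a comparison that called 2.27% of all genes, 0.632% downward. Neither call held when libraries were scaled to equal sarcomere levels, where the change was −0.35 for Gnao1 (adjusted p = 0.44) and −0.73 for Kcnj5 (adjusted p = 0.16) and the median of all genes moved from 0.18 to 0.70. Gnao1 also lost its call with the replicate block (adjusted p = 0.0773) and when any of 9 libraries was left out (adjusted p = 0.10 on omitting SAN E14.5 replicate 2). Kcnj5 lost it when any of 5 libraries was left out (adjusted p = 0.0761 on omitting the same library). Kcnj3, at −1.68 ± 0.45 (adjusted p = 0.0511), was outside the threshold and passed without any of 6 libraries, with equal upper quartiles (adjusted p = 0.0248), in edgeR (adjusted p = 0.0437), in DESeq2 (adjusted p = 0.00539) and with library weights (adjusted p = 0.00288).

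Of the 3 inhibitory alpha subunit genes, Gnai1 was called between the tissues in the mean of the stages, and none was called at a single stage. Gnai1 was at 71.7 ± 21.1, 65.1 ± 12.5 and 55.2 ± 7.92 CPM in SAN at E14.5, P4 and P14 and at 54.4 ± 21.3, 51.3 ± 12.9 and 29.7 ± 2.2 CPM in RA (SD, n = 3). The tissues overlapped at E14.5 and P4, and at P14 every SAN library lay above every RA library, with a difference of 0.87 ± 0.29 (adjusted p = 0.0968). Gnai2 was at 264 ± 59.6, 270.3 ± 71.1 and 260.3 ± 37.7 CPM in SAN and at 363 ± 31.6, 294 ± 16.4 and 252 ± 13.1 CPM in RA. Its SAN and RA ranges were apart at E14.5, with SAN lower by a difference of −0.48 ± 0.20 that did not pass (adjusted p = 0.19). Gnai3 was at 82.7 ± 9.8, 61.3 ± 33.5 and 67.8 ± 7.16 CPM in SAN and at 84.4 ± 15.3, 93.9 ± 4.26 and 54.5 ± 7.33 CPM in RA. At P4 Gnai3 differed by −0.74 ± 0.27 (adjusted p = 0.13) and, without SAN P4 replicate 3, by −1.15 (adjusted p = 0.00306).

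Per kilobase of exon, Gnai2 transcripts were the most abundant of the 4 alpha subunits in all 6 tissue and stage groups, with 45.3% to 61.5% of their sum. This order rests on the exon lengths used, 11053 bases for Gnao1 and 3779 for Gnai2. In CPM, Gnao1 had a higher mean than Gnai2 in every group but RA E14.5 (185 against 363 CPM). In SAN P14, for example, it was 471 against 260 CPM. Gnao1 made up 10.8% ± 0.47 of the sum in RA at E14.5, 23.5% ± 1.75 at P4 and 30.5% ± 2.77 at P14 (SD, n = 3). In SAN its share was 23.2% ± 6.5, 27.9% ± 8.89 and 28.5% ± 2.66. The 3 RA libraries of E14.5, at 10.4% to 11.3%, lay below all other libraries of the 18, of which the lowest was at 18.2%.

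**Figure D4:**
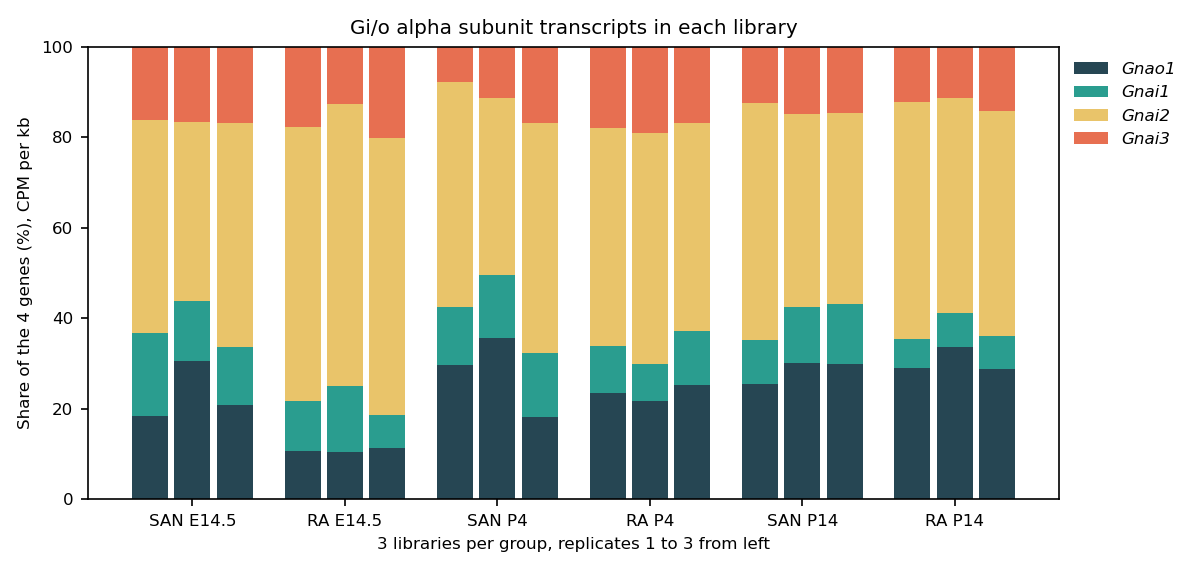
Share of Gnao1, Gnai1, Gnai2 and Gnai3 in the sum of these 4 genes, in percent of CPM per kilobase (y axis), in each of the 18 libraries grouped by tissue and stage. Each bar is a library and the colours are the genes. The Gnao1 segment is 10.4% to 11.3% in RA E14.5 and at least 18.2% elsewhere.

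Gnb5 was at 50.5, 56.3 and 69.4 CPM in SAN E14.5 and at 32.4, 31.9 and 28.6 CPM in RA E14.5, with no overlap. At P4 it was at 34.9, 29.2 and 32.6 CPM in SAN and 26.9, 40.1 and 69.5 CPM in RA, and at P14 at 38.6, 28.1 and 17.9 CPM in SAN and 20.6, 8.02 and 34.0 CPM in RA. The tissue difference of 0.89 ± 0.40 at E14.5 did not pass (adjusted p = 0.26), and passed with library weights (adjusted p = 0.0374) and with only the groups compared (adjusted p = 0.0327). In SAN the change from E14.5 to P14 was −1.09 ± 0.40 (adjusted p = 0.0528). It passed in 7 of 28 alternatives: with library weights (adjusted p = 0.0119), with only the groups compared (adjusted p = 0.0324) and without any of 5 libraries, most of all RA P14 replicate 2 (adjusted p = 0.0191).

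By age, the count of called members differed between the tissues, without a test of that difference. From E14.5 to P4, 4 of 9 rose in RA (Chrm2, Gnao1, Kcnj3 and Kcnj5), where 6.79% of all genes were called and 3.23% rose, and 1 of 9 rose in SAN (Chrm2), where 8.24% were called and 3.85% rose. Between P4 and P14, Kcnj5 rose in RA (6.76% of genes called, 1.34% rising) and Kcnj3 rose in SAN (5.59% called, 2.68% rising). From E14.5 to P14 4 members rose in RA (Chrm2, Gnao1, Kcnj3 and Kcnj5; 22.7% of genes called, 5.99% rising) and 3 rose in SAN (Chrm2, Kcnj3 and Kcnj5; 24.3% called, 9.74% rising). Over these 6 comparisons limma, edgeR and DESeq2 each called 0 members lower; at an unadjusted p under 0.05, 9 values were lower in limma, 1 in edgeR and 3 in DESeq2. The median of all genes from E14.5 to P14 was −0.18 in SAN and −0.37 in RA, and in RA it moved to −0.11 with equal upper quartiles and to −0.67 on sarcomere scaling. On sarcomere scaling Gnai1, Gnai2, Gnai3 and Gnb5 were called lower in RA at P14 than at E14.5, so that 4 members rose and 4 fell. Of all genes, 750 rose and 5530 fell on that scaling.

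Genes with the profile most like each member over the 18 libraries were ranked by the root mean square difference of their centred log2 values, among 10427 genes. Pde1c, a phosphodiesterase gene, was nearest to Chrm2, at 0.31, and Atp2a2, the sarcoplasmic calcium pump gene, was among its 3 nearest, at 0.36. Pde1c went from 44.2 CPM at E14.5 to 137 and 135 CPM at P4 and P14 in SAN, and from 32.9 to 139 and 135 CPM in RA. Kcnj3 was most like Pdzd2 at 0.44, which stood at 595 CPM in RA P14 and 204 CPM in SAN P14. Kcnj5 was closest to Gfer at 0.34, followed by Gnao1, itself a member, at 0.34. For Adora1 the nearest gene, Ppfia4, was at 0.70, set against a standard deviation of Adora1 of 1.66 over the 18 libraries. For the remaining members the nearest genes were Tmem65 for Gnao1 (0.26), Lphn1 for Gnai1 (0.28), Uhrf1bp1l for Gnai2 (0.18), Uba2 for Gnai3 (0.24) and Ubl5 for Gnb5 (0.31).

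Beyond the 9 members, the single gene with the largest tissue difference in the 8 pathway lists was Rgs4, among the genes that switch the pathway off. Of 14 RGS proteins and Gnb5 partners, 4 were higher in SAN and 3 lower over the 3 stages, with a list median of 0.17 against −0.01 for all genes. In that comparison 6.11% of all genes were called higher and 5.36% lower. Rgs4, which accelerates the hydrolysis of GTP by Gi and Gq subunits, was higher by 5.01 ± 0.23 (adjusted p = 9.2e-13), with means of 135, 138 and 74.0 CPM in SAN at E14.5, P4 and P14 against 0.273, 2.24 and 9.92 CPM in RA. Rgs6, an R7 family partner of Gnb5, was higher by 2.02 ± 0.18 (adjusted p = 2.1e-08), with 111, 220.0 and 174 CPM in SAN against 20.4, 46 and 66.4 CPM in RA. Rgs7, another R7 member, was lower by −1.30 ± 0.41 (adjusted p = 0.0424), and Rgs9bp, an anchor of R7 proteins, by −1.11 ± 0.28 (adjusted p = 0.00874). Rgs9 at 1.30 and Rgs5, known for its expression in pericytes, at 1.12 were higher, and Rgs3 was lower.

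With age Rgs7 rose in both tissues, from 0.951 to 19.2 CPM in SAN (3.43 ± 0.71, adjusted p = 0.0011) and from 0.733 to 69.1 CPM in RA (5.46 ± 0.71, adjusted p = 9.0e-06). Rgs4 and Rgs6 rose in RA, by 3.02 and 1.71, and in SAN moved by −0.88 and 0.65, which did not pass. Among 7 receptor kinases and arrestins, 1 was lower in SAN over the 3 stages, Grk5, which phosphorylates active receptors, at −0.90 ± 0.18 (adjusted p = 0.00122). The share of all genes called lower was 5.36%.

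Of 8 other inward rectifier genes 6 were tested, of which 1 was higher in SAN and 2 lower, with a median of −0.36. The shares of all genes were 6.11% higher and 5.36% lower. Kcnj2, the main subunit of the background current IK1, was lower by −1.66 ± 0.27 (adjusted p = 1.3e-04), with 34.8, 19.6 and 38.7 CPM in SAN at E14.5, P4 and P14 against 74.7, 111 and 78.3 CPM in RA. Kcnj11, a subunit of the ATP-sensitive channel, was lower by −0.89 ± 0.23, and Kcnj14 was higher by 1.17 ± 0.31. Of the other GIRK subunits, Kcnj6 (GIRK2) fell with age, from 2.31 to 0.0444 CPM in SAN and from 6.41 CPM to a listed 0 in RA, and Kcnj9 (GIRK3) was below 1 CPM in every group mean. Of 7 other muscarinic and adenosine receptor genes 4 were in the file and 3 were tested, and limma, edgeR and DESeq2 each called 0 in the mean of the 3 stages (1 at an unadjusted p under 0.05 in limma). At single stages limma called Adora3 lower in SAN at E14.5 (−1.42 ± 0.41, adjusted p = 0.0456) and Chrm3 higher in SAN at P4 (1.84 ± 0.53, adjusted p = 0.0392), and edgeR and DESeq2 called 0 in either. With age Chrm3 rose from E14.5 to P4 in SAN (2.43 ± 0.53, adjusted p = 0.00526) and from E14.5 to P14 in RA (1.57 ± 0.53, adjusted p = 0.0339), where Adora3 fell (−1.70 ± 0.41, adjusted p = 0.00448). Adora2a was at 1.74 to 5.55 CPM, Chrm3 at 0.0241 to 5.08 CPM and Adora3 at 0 to 2.6 CPM in the group means of the 18 libraries.

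In the mean of the 3 stages other G protein subunit genes were not called between the tissues by limma, with 0 of 9 alpha subunits and 0 of 13 beta and gamma subunits, beside 11.5% of all genes. At an unadjusted p under 0.05 the counts were 0 and 2, and edgeR and DESeq2 each called 0 alpha subunits and 1 beta or gamma subunit. At single stages Gng2, a gamma subunit gene, was higher in SAN at E14.5, by 1.24 ± 0.21 (adjusted p = 7.0e-04), and lower at P14, by −1.0 ± 0.21 (adjusted p = 0.00527), so that its mean over stages was −0.08. Gng8 at P4 (2.28 ± 0.61, adjusted p = 0.0238) and Gng4 at P14 (1.6 ± 0.40, adjusted p = 0.0209) were higher in SAN, with means of 7.36 and 3.42 CPM there. From E14.5 to P14, 2 of 13 beta and gamma genes rose and 4 fell in SAN, where 24.3% of all genes were called, and 1 rose and 2 fell in RA, where 22.7% were, a share near that of these genes. Gng5 was at −1.93 and −1.56 in the 2 tissues. Gng2 moved in opposite directions, by −1.24 ± 0.21 in SAN (adjusted p = 1.5e-04) and by 1.00 ± 0.21 in RA (adjusted p = 0.00132).

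For the ligands, 4 of 7 acetylcholine genes were tested, and Ache, the enzyme that breaks acetylcholine down, was higher in SAN by 1.37 ± 0.32 (adjusted p = 0.00553), at 13.6, 5.78 and 12.1 CPM against 3.37, 2.07 and 5.69 CPM. Slc5a7, the neuronal choline transporter, was lower by −1.29 ± 0.34 (adjusted p = 0.0138), with group means of at most 3.44 CPM. Of 8 tested adenosine genes 1 was higher, Adk, which phosphorylates adenosine, at 1.16 ± 0.22 (adjusted p = 9.1e-04). Between the tissues 6.11% of all genes were called higher and 5.36% lower. From E14.5 to P14, 3 of the 8 adenosine genes rose in SAN, where 9.74% of all genes rose, and 4 of 8 in RA, where 5.99% did, and the others did not pass. The ectonucleotidase genes Entpd1 and Entpd2 and the nucleoside transporter gene Slc29a1 rose in both, and Nt5e, which makes adenosine from AMP, rose in RA by 1.28 ± 0.43 (adjusted p = 0.0375). The list medians were 1.14 in SAN and 1.24 in RA, against −0.18 and −0.37 for all genes.

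The Isl1 set asks which of these genes move when a Cre that can delete the LIM-homeodomain factor Isl1 is present. Isl1 itself did not follow the labels. It stood at 67.4, 88.5, 47.8 and 83.2 CPM in the CreNeg libraries and at 71.7 and 53.9 CPM in the libraries labelled CrePos, a difference of −0.16 ± 0.28 (adjusted p = 0.73). These are reads over the whole gene, and the labels do not say which exon is floxed, so they neither show nor exclude a deletion. Of the other 3 node markers, Tbx3 at −2.80 ± 0.44 (adjusted p = 0.00273) and Hcn4 at −1.25 ± 0.22 (adjusted p = 0.00513) were lower in the libraries labelled CrePos, and Shox2 at −0.82 ± 0.25 (adjusted p = 0.10) did not pass. Nppa, a marker of working atrial myocytes, was higher by 2.51 ± 0.58 (adjusted p = 0.036), at 5.09 and 10.6 CPM. Gja1, another such marker, did not pass (0.49 ± 0.43, adjusted p = 0.50). The 5 atrial markers summed to 4007 to 5808 CPM in CreNeg and 5365 to 6546 CPM in the libraries labelled CrePos, which overlap.

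Both receptor genes were lower in the libraries labelled CrePos, and the other 7 members were not called. Chrm2 was at 16.7, 19.8, 37.5 and 46.3 CPM in CreNeg and at 5.05 and 5.92 CPM in the 2 libraries labelled CrePos. Adora1 was at 28.6, 21.9, 28.6 and 31.0 CPM in CreNeg and at 8.64 and 7.47 CPM in those 2 libraries. Neither gene had overlapping ranges. The difference was −2.14 ± 0.41 for Chrm2 (adjusted p = 0.0119) and −1.65 ± 0.32 for Adora1 (adjusted p = 0.0124), where 2.00% of all genes were called, 1.32% lower. The median of all genes was −0.42, and ranges were apart for 30.7% of genes and 4 of the 9 members.

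With equal upper quartiles, which brought the median of all genes to −0.03, Adora1 kept its call and Chrm2 was at −1.74 (adjusted p = 0.0931). In edgeR the values were −1.99 for Chrm2 (adjusted p = 0.16) and −1.30 for Adora1 (adjusted p = 0.0782), and with no filter on low values adjusted p was 0.17 and 0.0701. Without CrePos replicate 1 adjusted p was 0.0754 and 0.055, and without CrePos replicate 3 it was 0.21 and 0.20, where the lone CrePos library was assumed to vary like the CreNeg libraries. Neuron markers were also lower, with a summed 89.7 to 175 CPM in CreNeg and 30.9 to 39.4 CPM in the libraries labelled CrePos, where Prph was at 0. Fibroblast markers summed to 659 to 1481 CPM and 262 to 446 CPM. Ventricular myocyte markers went the other way, at 30.3 to 63.9 CPM in CreNeg and 88.8 to 126 CPM in the libraries labelled CrePos, with Irx4 at 0 in both. The part of any of these in the receptor differences was not tested.

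The 5 G protein genes and both channel genes did not pass the test. Gnao1 was at 154 ± 37.4 CPM in CreNeg (SD, n = 4) and at 126 and 128 CPM in the libraries labelled CrePos. Kcnj3 was at 22.8 ± 6.34 CPM and at 22.2 and 21.8 CPM, with a difference of −0.01 ± 0.32 (adjusted p = 0.99). Kcnj5 was at 303 ± 66.9 CPM and at 453 and 296 CPM, with 0.30 ± 0.26 (adjusted p = 0.50). Gnai1, Gnai2, Gnai3 and Gnb5 differed by −0.44, −0.56, −0.58 and 0.26 and did not pass. Of these 7 genes, Gnai2 had ranges apart with CrePos lower and Gnb5 had ranges apart with CrePos higher.

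**Figure D5:**
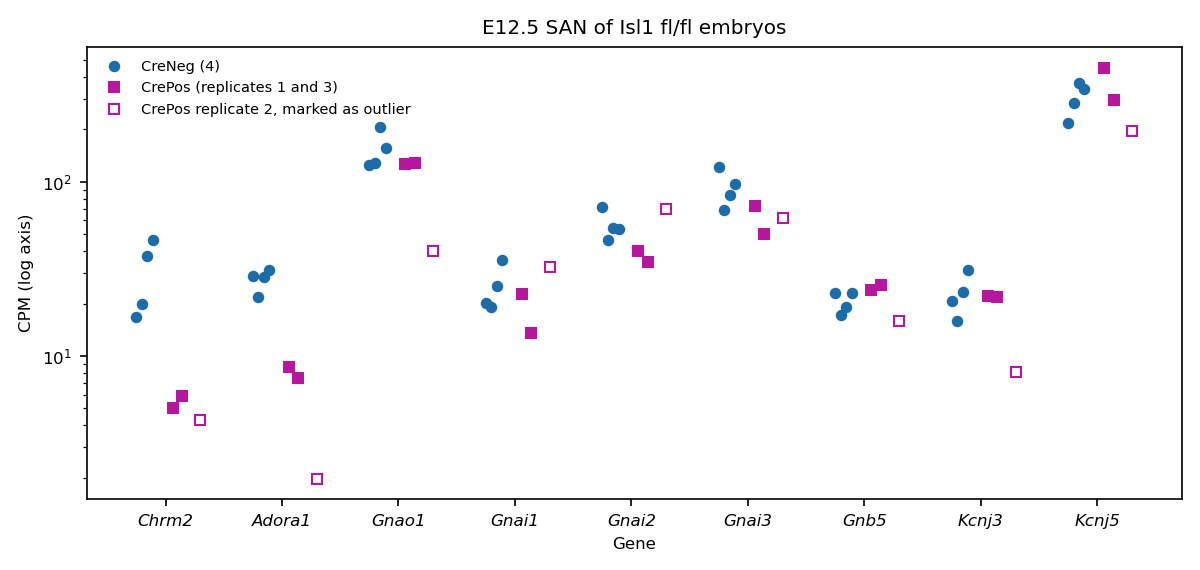
Level of each of the 9 genes in E12.5 SAN of Isl1 fl/fl embryos, in CPM on a log axis: 4 CreNeg libraries (circles), CrePos replicates 1 and 3 (filled squares) and CrePos replicate 2, marked as an outlier (open square). The CrePos squares of Chrm2, at 5.05 and 5.92 CPM, and of Adora1, at 7.47 and 8.64 CPM, lie below all CreNeg circles, while those of Kcnj3 lie among them.

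Within the E12.5 libraries the channel and alpha subunit proportions were described in the same way. Kcnj5 per kilobase was 15.3 ± 3.89 times Kcnj3 in CreNeg (SD, n = 4) and 22.7 and 15.1 times in the libraries labelled CrePos. Per kilobase, Gnai3 was the most abundant alpha subunit there, with 43.3% ± 4.95 of the sum of 4 in CreNeg, and Gnai2 made up 22.8% ± 2.4. This order also rests on the exon lengths, as mean CPM in CreNeg was 154 for Gnao1 and 92.9 for Gnai3. The Isl1 set was sequenced more deeply and fitted apart, and its levels were not tested against the later stages. Of the other pathway genes, Rgs4 was lower in the libraries labelled CrePos by −5.15 ± 0.38 (adjusted p = 2.8e-06), at 0.857 CPM against 69.2 CPM in CreNeg. Entpd1 was lower by −2.32 ± 0.55 (adjusted p = 0.0394), and these were the 2 genes called among the 8 pathway lists, beside 2.00% of all genes.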

How the data were processed

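RNA from laser-captured SAN and RA was amplified by single primer isothermal amplification with random and poly-T primers and sequenced, per the labels' protocols. Reads were processed with TopHat2 2.0.6 on mm8 and with edgeR, per the submitters' processing notes; the gene annotation, the read counter and whether strand was used are not given in the sources used here. The deposited table by the authors holds a normalized signal for 20870 genes in 25 libraries. At least 99.98% of its values were whole reads (within 0.1 read) after multiplication by one factor per library, and read totals were recovered in that way. Division by 24.3 put the values on a CPM scale. Promoters came from RefSeq (GRCm38.p6; 8 of 9 genes matched) and exon lengths from GENCODE M21 on GRCm38, another build than the authors', used only for levels per kilobase.

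The 9 genes and the pathway and marker lists were chosen with earlier results of these data known. Differences were tested with limma 3.58.1 (R 4.3.3, mean-variance trend) on log2(CPM + 1) with Benjamini-Hochberg adjustment over all genes that reached 1 CPM in 3 or more of 18 libraries, with 6 group means fitted together. The Isl1 set (4 CreNeg, 2 CrePos) was fitted apart, and genes needed 1 CPM in 2 or more libraries. The scripts were tested on simulated counts with 100 genes changed 2-fold and 100 changed 4-fold. Of the 2-fold changes, 22% were recovered between SAN and RA at P4, 17% from E14.5 to P4 in SAN and 42% in the Isl1 set. Of the 4-fold changes, 87%, 84% and 98% were. A gene that did not pass may therefore still differ by 2-fold. All 9 members were named, with up to 3 genes of each pathway list with the smallest p between tissues and 3 from E14.5 to P14 in SAN, and the 3 genes most like each member with a mean of at least 5 CPM; single genes named beyond this rule (Rgs3, Nt5e, Kcnj9 and Slc29a1 among them) were chosen after their values were seen. Alternatives were pseudocounts of 0.5 and 0.1, no filter, equal upper quartiles, sarcomere scaling, edgeR 4.0.16 and DESeq2 1.42.0 on the recovered reads, library weights, the replicate number as a block and leaving out each library. In the Isl1 set, adding CrePos replicate 2 was a further alternative. A fit on only the groups compared was added after seeing the data. Any 2 libraries of a group differed by more than sampling noise (chi-square per degree of freedom of at least 8.42). A count of 3 reads was used as the floor, and it covers counting error only.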

Additional observations from a re-analysis of the deposited data

Results flagged for a closer look

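The difference between SAN and RA was tested for a change with stage. From E14.5 to P14 it changed by −0.97 for Gnao1 and by −1.34 for Kcnj5, and both changes passed. Over the 3 stages together the limma F test gave an adjusted p of 0.00939 for Kcnj3, 0.0329 for Kcnj5 and 0.0408 for Gnao1. In RA every E14.5 library was below every postnatal library for these 3 genes, while in SAN the E14.5 and P4 libraries overlapped. On sarcomere scaling the changes of Gnao1 and Kcnj5 did not pass, and the cause was not tested. In the only group of 4 or more libraries, CreNeg, no member had a library far from the others.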

How the results depend on the processing

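The 9 genes kept the direction of every called difference under every alternative run. Counted were pairs of gene and comparison called as reported or under at least 1 alternative. Of their values, 1207 kept their side of the threshold, 84 came to pass, 75 no longer passed and 0 reversed. Pairs called under no setting, where differences near 0 can change sign, were not counted, so the 0 does not cover them. Each count below is of members called, beside the number as reported. With library weights it was 6 at E14.5 (as reported, 2), 3 at P14 (1), 0 for SAN P14 against P4 (1), 2 for RA P14 against P4 (1), 8 for RA P14 against E14.5 (4) and 4 for the change of the tissue difference from E14.5 to P14 (2). Over all genes the counts were, in that order, 2914 (as reported, 936), 1127 (799), 661 (982), 3191 (1188), 7640 (3988) and 1397 (399). On sarcomere scaling the member count was 3 at P14, 2 for SAN P14 against P4, 0 for RA P14 against P4, 8 for RA P14 against E14.5, 1 for the change from E14.5 to P14 (Gnai2, upward, at 1.14, neither of the 2 reported) and 1 for the F test over stages (3). All genes called there were 1957, 980, 1006, 6280, 2157 and 1401 (359). With equal upper quartiles the member count was 4 for the change from E14.5 to P14 and 1 in the Isl1 set (2). All genes called there were 404 and 234 (292). With no filter on low values the member count was 0 for SAN P14 against P4, 0 for RA P14 against P4, 1 for the F test and 0 in the Isl1 set. All genes called there were 851, 1018, 303 and 39. DESeq2 gave 2 members at P14 and 4 for the change from E14.5 to P14, where it called 947 and 659 of all genes. In the Isl1 set edgeR gave 0, where 126 of all genes were called. With only the groups compared, which leaves fewer libraries in the fit, the member count was 4 at E14.5, 1 at P4 (2), 2 at P14, 0 for SAN P4 against E14.5 (1), 0 for SAN P14 against P4 and 0 for RA P14 against P4. All genes called there were 1081, 400 (1047), 486, 550 (1448), 43 and 350.

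With the replicate number as a block the count was 2 at P14, 0 for RA P14 against P4, 1 for the change from E14.5 to P14 and 1 for the F test. All genes called there were 685, 1088, 300 and 285. Leaving out single libraries aside, other member counts moved by at most 1.5 times. The labels do not tie SAN and RA libraries of one number to one animal. Deviations of SAN and RA libraries of one number correlated at −0.09 to 0.12, and 3 of 9 matched their own number best. With 3 libraries per group these values cannot decide whether a number marks a pair.

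Leaving out 1 library at a time gave 3 to 5 members for the 3 stages together (4), 2 to 3 at E14.5, 2 to 3 at P4, 1 to 2 at P14, 0 to 2 for SAN P4 against E14.5, 0 to 1 for SAN P14 against P4, 1 to 4 for SAN P14 against E14.5 (3), 4 to 5 for RA P4 against E14.5 (4), 0 to 2 for RA P14 against P4, 4 to 7 for RA P14 against E14.5, 0 to 4 for the change from E14.5 to P14, 1 to 4 for the F test and 0 to 2 in the Isl1 set. Scaling moved the split of all called genes. At P14 it was 564 higher in SAN and 235 lower, against 427 and 341 with equal upper quartiles and 1782 and 175 on sarcomere scaling. In RA from E14.5 to P14 it was 1052 and 2936, against 1556 and 1683 and 750 and 5530. In the Isl1 set it was 99 and 193, against 163 and 71. The cause of these changes was not tested.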

Other observations

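CrePos replicate 2, marked as an outlier in its title, was in no comparison as reported. An alternative fit of the Isl1 set that added it called 2 members, both lower, and 264 of all genes. That library held 4.29 CPM of Chrm2, 1.98 CPM of Adora1, 40.0 CPM of Gnao1, 8.14 CPM of Kcnj3 and 197 CPM of Kcnj5. For 7 of the 9 members it lay below the CreNeg range, and Gnai1 at 32.3 CPM and Gnai2 at 69.7 CPM lay within it. Isl1 was at 2.85 CPM in that library, against 47.8 to 88.5 CPM in CreNeg, and Myl2 at 1032 CPM.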
